A study of Homo sapiens with 22 samples.

Results

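The APOBEC3 enzymes are a family of human cytidine deaminases, encoded side by side on chromosome 22 in the order APOBEC3A, APOBEC3B, APOBEC3C, APOBEC3D, APOBEC3F, APOBEC3G and APOBEC3H. The 7 members were taken by gene symbol from the 35237 rows of the count table, and all 7 were present. The family was picked because APOBEC3B had ranked among the largest falls in GIMEN cells after treatment. That contrast is therefore described for the family without a test. The contrasts in SK-N-AS cells, which that reason does not name, were tested. Members and lists were chosen with earlier results of these data known, so those tests may not be independent of the choice.

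RNA was measured in 22 libraries of 2 established human neuroblastoma cell lines, which the labels class as mesenchymal (MES). Untreated SK-N-AS cells, grown in DMEM with 10% fetal bovine serum, gave 4 libraries. The S1D4 group, of 4 libraries, had received 5 µM PP121, a kinase inhibitor, for 4 days with serum at 1%. S1D4 cells then moved to Neurobasal medium with B27 supplement, 5 µM PP121 and 100 nM bufalin, a cardiac glycoside that inhibits the sodium pump, for 4 days (S2D4, 4 libraries) or 30 days (S2D30, 4 libraries). GIMEN cells were untreated in RPMI with 10% serum (3 libraries) or kept for 30 days with 2.5 µM PP121 and 10 nM bufalin in 1% serum (D30, 3 libraries). No group held untreated cells in the low-serum or Neurobasal medium, so the compounds, the medium and the time in culture cannot be told apart. Doses and media also differed between the lines, whose values are given side by side without a test of the difference.

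Total counts ran from 16456484 to 37506800 per library. Levels are CPM (a gene's counts scaled to library size) after 1 trimmed-mean scaling of all 22 libraries, and log2 fold changes come from models fitted within each line over all genes. Of 8 mesenchymal markers, the summed level was 38935 to 40111 CPM in untreated GIMEN, mostly FN1 at 32079.7 CPM and VIM at 5963 CPM, and 883 to 1546 CPM in untreated SK-N-AS. TWIST1 was higher in untreated SK-N-AS, at 110 ± 11.1 CPM (SD, n = 4), than in untreated GIMEN, at 75.6 ± 1.22 CPM (SD, n = 3), as values without a test. Of 8 adrenergic markers, the summed level was 1527 to 1817 CPM in untreated SK-N-AS and 465 to 479 CPM in untreated GIMEN, mostly HAND2 at 370 CPM, with 3 of the 8 at 0 counts. These markers moved with treatment. In SK-N-AS the adrenergic sum was 207 to 249 CPM at S2D30, with 7 of 8 lower and 0 higher, and 6 of 8 mesenchymal markers were higher and 2 lower. In GIMEN D30, 7 of 8 mesenchymal markers were lower and 1 higher. Of all genes tested, 36.5% were lower and 33.8% higher at S2D30, and 36% were lower and 35.5% higher in GIMEN D30. Their part in the APOBEC3 differences was not tested. Replicate 4 of S2D4 correlated with the others of its group at 0.967 to 0.969, below every other library's best match. The labels do not say whether replicates were separate cultures, so p-values measure the spread between these libraries, which may be technical. In bulk RNA, fewer cells that make a transcript and less of that transcript per cell cannot be told apart.

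APOBEC3 proteins remove the amino group of cytosine in single-stranded DNA and leave uracil, which marks foreign genomes for destruction or mutation. In infected cells they restrict retroviruses and mobile elements. In tumours, APOBEC3A and APOBEC3B are the members most often linked to clustered C-to-T and C-to-G mutations in the cell's own genome. APOBEC3B is a nuclear enzyme whose gene is known to be repressed by the DREAM complex and switched on by E2F and by non-canonical NF-kB signalling. APOBEC3C is a compact, widely transcribed member, APOBEC3D, APOBEC3F, APOBEC3G and APOBEC3H are known as virus restriction factors, and APOBEC3A is typical of myeloid cells.

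APOBEC3C and APOBEC3B made up most APOBEC3 transcript in untreated cells of both lines. Per kilobase of exon, APOBEC3C stood at 8.94 ± 1.79 CPM per kb (SD, n = 4) in untreated SK-N-AS and 23.8 ± 0.114 CPM per kb (SD, n = 3) in untreated GIMEN. APOBEC3B followed at 7.52 ± 2.11 CPM per kb in SK-N-AS and 19.4 ± 1.33 CPM per kb in GIMEN. APOBEC3F (1.03 ± 0.119), APOBEC3G (0.900 ± 0.0829) and APOBEC3D (0.896 ± 0.0461) were close to each other and well below those levels in untreated SK-N-AS, on the same per-length scale. The APOBEC3D value is less certain. Another gene model, AL022318.4, shares 83.2% of its exon bases on the same strand, and how such reads were counted is not given. APOBEC3A and APOBEC3H were at the edge of detection, with 0 to 17 and 0 to 4 counts per library over all 22 libraries.

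**Figure D1:**
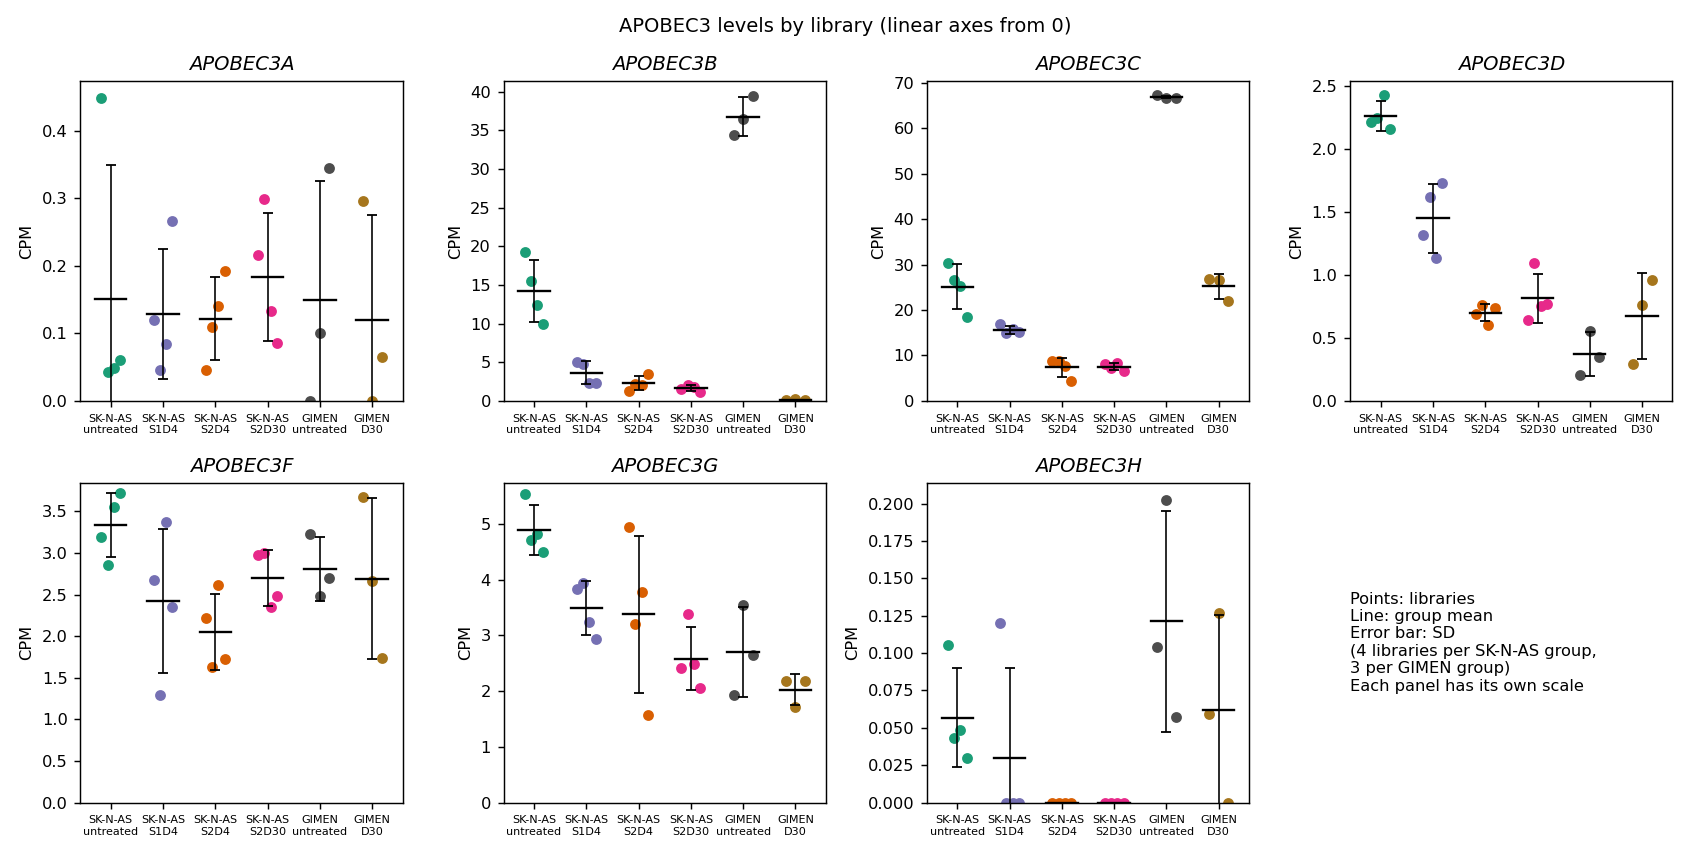
CPM of the 7 APOBEC3 members by group (points: libraries; line and bar: mean and SD; n = 4 per SK-N-AS group and 3 per GIMEN group; each panel has its own linear axis from 0). APOBEC3B and APOBEC3C stand highest in untreated GIMEN, and APOBEC3B drops to between 0.0591 and 0.190 CPM in GIMEN D30.

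APOBEC3B had the largest fitted change of the members kept by the count filter in each line against untreated cells. In untreated SK-N-AS its 4 libraries held 19.2, 15.5, 12.4 and 9.94 CPM. After PP121 in low serum (S1D4) they held 5.00, 4.82, 2.36 and 2.31 CPM. All 4 S1D4 libraries lay below all 4 untreated ones, and the fall was 3.91-fold (log2 fold change -1.97, SE 0.32, edgeR adjusted p = 0.000126). With bufalin and Neurobasal medium added, S2D4 libraries held 1.29, 2.18, 2.10 and 3.53 CPM, a 6.19-fold fall from untreated cells (log2 fold change -2.63, SE 0.33, edgeR adjusted p = 2.86e-06). At 30 days (S2D30) they held 1.51, 2.05, 1.86 and 1.15 CPM, an 8.58-fold fall (log2 fold change -3.10, SE 0.34, edgeR adjusted p = 3.95e-07). None of the 3 treated groups overlapped the untreated libraries. Most of the fall was already present at S1D4, and neither later step between adjacent stages passed the test. S2D4 against S1D4 gave -0.66 (SE 0.33, edgeR adjusted p = 0.0951) and S2D30 against S2D4 gave -0.47 (SE 0.34, edgeR adjusted p = 0.267). S2D30 against S1D4 was not tested, but all S2D30 libraries (1.15 to 2.05 CPM) lay below all S1D4 libraries (2.31 to 5.00 CPM). Replicate 4 of S2D4 was the highest of its group, and without it the step from S1D4 to S2D4 was -0.98 (edgeR adjusted p = 0.0178). Leaving out replicate 4 of S1D4 gave -0.83 (edgeR adjusted p = 0.0483).

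In GIMEN, where APOBEC3B had been chosen by its fall, untreated libraries held 34.4, 36.5 and 39.4 CPM, the highest levels of this gene in the study. After 30 days of PP121 and bufalin they held 0.0591, 0.190 and 0.0643 CPM, from 1, 3 and 1 counts. Pooled over the libraries, 5 counts stood against 2067, a ratio of 354-fold lower (95% exact interval 151 to 1091, counting error only). The fitted log2 fold change of -8.38 was the 4th largest fall of 13517 genes, and with so few counts that fitted value depends on the prior count of the model. Untreated GIMEN, untreated SK-N-AS and S1D4 formed a descending order without overlap between neighbours. S2D4 overlapped both S1D4 and S2D30 in that order, and GIMEN D30 lay below all of them.

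APOBEC3C fell in SK-N-AS in 2 steps. Untreated libraries held 30.5, 26.7, 25.2 and 18.4 CPM, and S1D4 libraries held 16.9, 14.97, 15.7 and 15.1 CPM. These groups did not overlap (log2 fold change -0.68, SE 0.18, edgeR adjusted p = 0.00726). S2D4 libraries held 8.88, 8.70, 7.74 and 4.36 CPM, and S2D30 libraries held 8.06, 7.14, 8.24 and 6.58 CPM. The fall from S1D4 to S2D4 was itself 2.14-fold without overlap (log2 fold change -1.10, SE 0.19, edgeR adjusted p = 0.000129), whereas S2D30 against S2D4 gave 0.04 (SE 0.19, edgeR adjusted p = 0.866). Against untreated cells the log2 fold change was -1.77 at S2D4 (SE 0.19, edgeR adjusted p = 5.32e-07) and -1.73 at S2D30 (SE 0.19, edgeR adjusted p = 4.25e-07). In GIMEN the untreated libraries held 67.3, 66.7 and 66.8 CPM and the D30 libraries 26.9, 26.7 and 22.1 CPM. Those groups did not overlap either, and the fitted log2 fold change was -1.41. Treated GIMEN cells thus kept APOBEC3C at 25.2 ± 2.70 CPM (SD, n = 3), a level that overlapped untreated SK-N-AS at 25.2 ± 5.03 CPM (SD, n = 4).

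APOBEC3D, which had the lowest counts of the members that could be tested, fell at the same steps as APOBEC3C. Its libraries held 2.22, 2.25, 2.43 and 2.16 CPM in untreated SK-N-AS and 1.32, 1.62, 1.14 and 1.73 CPM at S1D4. The fall of -0.64 on the log2 scale (SE 0.21) passed the threshold at an edgeR adjusted p of 0.0256, and the groups did not overlap. That call was lost without replicate 3 of the untreated cells (edgeR adjusted p = 0.0591), without replicate 1 of S1D4 (0.0663), without replicate 3 of S1D4 (0.0847) and with no filter on low counts (0.0947). S2D4 held 0.694, 0.762, 0.606 and 0.737 CPM, and S2D30 held 0.646, 1.10, 0.753 and 0.770 CPM. Both lay below every S1D4 library, and against untreated cells the log2 fold changes were -1.69 (SE 0.23, edgeR adjusted p = 6.66e-06) and -1.46 (SE 0.22, edgeR adjusted p = 2.05e-05). The step from S1D4 to S2D4 was -1.05 (SE 0.23, edgeR adjusted p = 0.00104). In GIMEN, APOBEC3D was too low to pass the count filter, at 0.208, 0.556 and 0.345 CPM untreated and 0.296, 0.761 and 0.964 CPM at D30, with overlapping libraries.

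APOBEC3G, a cytoplasmic restriction factor best known for its packaging into HIV particles, fell at S2D30 against untreated cells, while S1D4 and S2D4 did not pass that test. Untreated SK-N-AS libraries held 5.54, 4.72, 4.81 and 4.50 CPM and S2D30 libraries 2.41, 3.39, 2.48 and 2.05 CPM. These did not overlap (log2 fold change -0.91, SE 0.27, edgeR adjusted p = 0.00618). S1D4 libraries, at 3.84, 3.94, 3.24 and 2.93 CPM, also lay below every untreated one, but that difference, -0.48 on the log2 scale with an SE of 0.26, had an edgeR adjusted p of 0.157. S2D4 libraries spread from 4.95, 3.21 and 3.78 CPM down to 1.57 CPM in replicate 4, and the group lay -0.55 from untreated cells on the log2 scale (SE 0.26, edgeR adjusted p = 0.0801). Without replicate 1 of S2D4, the highest library of that group, it was -0.80 (edgeR adjusted p = 0.0169). Without replicate 4 of S2D4, the lowest, S2D30 against S2D4 gave -0.61 (edgeR adjusted p = 0.018), where all libraries gave -0.36 (SE 0.27, edgeR adjusted p = 0.284). GIMEN libraries held 1.93, 3.54 and 2.65 CPM untreated and 2.19, 1.71 and 2.19 CPM at D30, which overlapped.

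APOBEC3F, a close relative of APOBEC3G that also restricts retroviruses, had the smallest fitted changes of the tested members at S1D4 and S2D30. It stood at 3.19, 2.86, 3.55 and 3.72 CPM in untreated SK-N-AS and at 2.22, 1.63, 2.61 and 1.73 CPM in S2D4. That fall, without overlap, passed the test (log2 fold change -0.71, SE 0.25, edgeR adjusted p = 0.0203). It did not pass without replicate 4 of the untreated cells (edgeR adjusted p = 0.0531) or without replicate 2 of S2D4 (0.0616). S1D4 libraries held 2.68, 1.298, 3.37 and 2.35 CPM (log2 fold change -0.45, SE 0.25, edgeR adjusted p = 0.156). S2D30 libraries held 2.97, 2.99, 2.35 and 2.48 CPM (log2 fold change -0.29, SE 0.24, edgeR adjusted p = 0.299). Both groups overlapped the untreated libraries. GIMEN libraries held 3.23, 2.48 and 2.70 CPM untreated and 3.67, 2.66 and 1.74 CPM at D30, which overlapped around a fitted -0.06 on the log2 scale. Over the 6 groups the order of APOBEC3F means ran from 3.33 ± 0.384 CPM (SD, n = 4) in untreated SK-N-AS to 2.05 ± 0.454 CPM (SD, n = 4) in S2D4, and every group overlapped its neighbour.

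APOBEC3A and APOBEC3H did not pass the count filter in either line. APOBEC3A had 1 to 6 counts in every treated SK-N-AS library, 1 or 2 counts in 3 untreated libraries and 17 counts in the other. In GIMEN it had 0 to 6 counts in either group. APOBEC3H had 1 to 4 counts in the untreated SK-N-AS libraries and 3 counts in a lone S1D4 library. It had 0 counts in all 8 S2D4 and S2D30 libraries, where 3 counts, the limit that a count of 0 allows, would be 0.0962 to 0.163 CPM in S2D4 and 0.128 to 0.150 CPM in S2D30. The untreated mean of 0.0569 CPM is below that limit for a library. Pooled over libraries, 0 counts stood against 7, and the exact 95% interval of the ratio, for counting error only, began at 1.16-fold lower in S2D4 and 1.12-fold lower in S2D30.

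Of the 7 members, 5 passed the filter in SK-N-AS and 4 in GIMEN. In SK-N-AS, 3 of the 5 were lower at S1D4 (APOBEC3B, APOBEC3C and APOBEC3D), where 22.4% of the 15810 genes tested were lower. At S2D4, 4 of 5 were lower (these and APOBEC3F) against 32.2% of all genes, and at S2D30 4 of 5 were lower (the first 3 and APOBEC3G) against 36.5%. No member was higher in any of these contrasts, where 17.6%, 30.9% and 33.8% of genes were. For S2D4 against S1D4, 2 of 5 were lower (APOBEC3C and APOBEC3D), against 26.8% of all genes, and none were higher, against 28.3%. For S2D30 against S2D4, edgeR and DESeq2 both called 0 of 5, with 0 at an unadjusted p under 0.05 in edgeR, where 26.9% of genes were lower and 24.4% higher. The median log2 fold change of the tested members was -0.64 at S1D4, -1.69 at S2D4 and -1.46 at S2D30, beside -0.01, -0.02 and -0.03 over all genes. In GIMEN, 36% of the 13517 genes tested were lower and 35.5% higher at D30, and nothing is read from the members there because the contrast was used to choose the family.

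**Figure D2:**
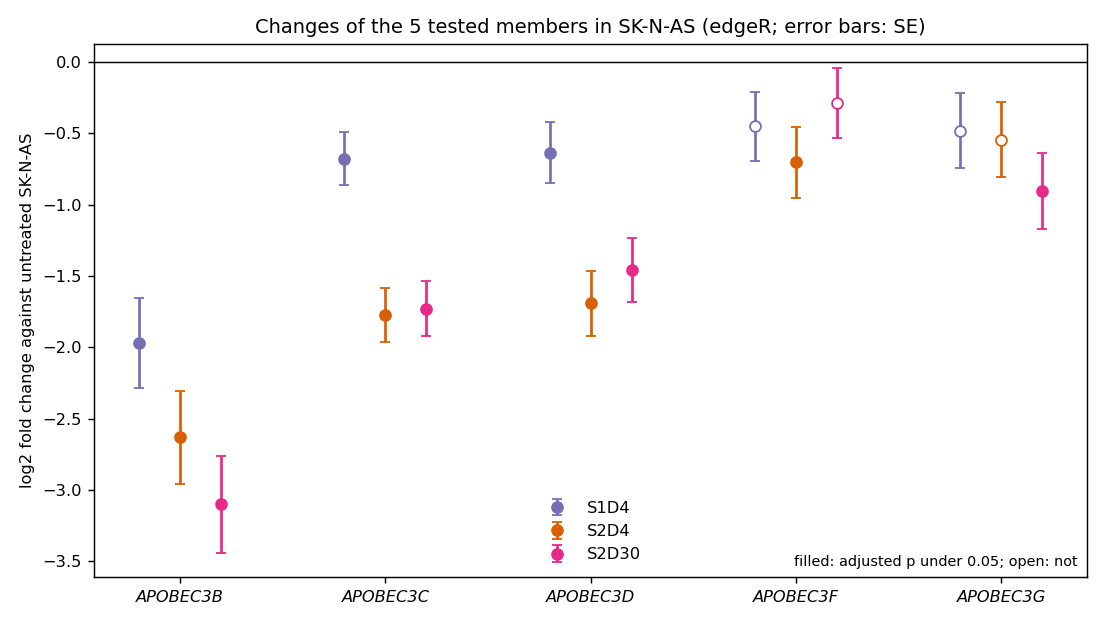
Log2 fold change against untreated SK-N-AS (y axis) of the 5 members that passed the count filter, at S1D4, S2D4 and S2D30 (points: edgeR estimate; bars: SE; filled points: adjusted p under 0.05). APOBEC3B lies lowest at all 3 stages, from -1.97 to -3.10, and APOBEC3F lies nearest to 0 at S1D4 and S2D30.

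The make-up of the family differed between groups. Summed over the 7 members, APOBEC3 counts went from a mean of 50.2 ± 9.24 CPM (SD, n = 4) in untreated SK-N-AS to 26.8 ± 2.27 at S1D4, 15.9 ± 2.63 at S2D4 and 15.4 ± 1.63 CPM at S2D30, as values without a test. In GIMEN the sum was 110 ± 2.57 CPM (SD, n = 3) untreated and 30.9 ± 3.33 CPM at D30. Of family counts per kilobase of exon, APOBEC3B made up 35.4 to 42.1% in untreated SK-N-AS, 13.9 to 26.4% at S1D4 and 13.7 to 18.9% at S2D30. At S2D4 its share ranged from 11.9% to 40.4%, the latter in replicate 4, where APOBEC3C was also the lowest of its group. In GIMEN the APOBEC3B share was 41.7 to 45.1% untreated and 0.274 to 0.903% at D30, while APOBEC3C went from 51.4 to 54.8% up to 83.7 to 85.3%. The GIMEN shares follow from the fall by which APOBEC3B was chosen and are a description. APOBEC3F made up 4.09 to 7.84% of the family in untreated SK-N-AS and 13.3 to 17.3% at S2D30.

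**Figure D3:**
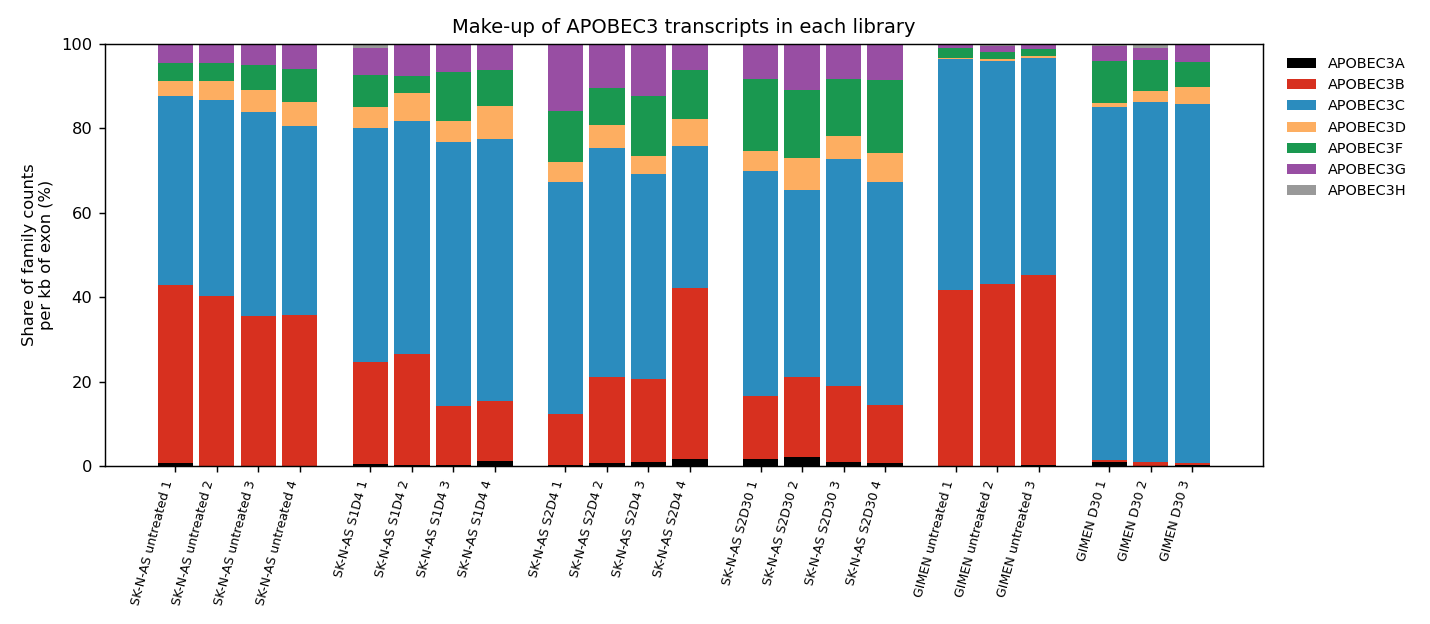
Share of each member in the APOBEC3 counts per kb of exon (y axis, %) in each of the 22 libraries (x axis; number: replicate). APOBEC3B fills 41.7 to 45.1% of untreated GIMEN bars and under 1% of GIMEN D30 bars, which are 83.7 to 85.3% APOBEC3C.

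Members share sequence, which bears on how counts divide between them. In the GENCODE v29 transcripts, 30.7% of the 75-base stretches of APOBEC3B also occurred in another gene, mostly APOBEC3A (21.7%), and 15.7% of its 150-base stretches did. For APOBEC3A the shares were 22.7% and 14.4%. For APOBEC3C they were 0.249% and 0%, for APOBEC3G 5.98% and 2.83%, for APOBEC3F 16.5% and 7.03%, and for APOBEC3H 0% and 0%. APOBEC3D stood apart at 81.4% and 78.3%, nearly all of it shared with AL022318.4, a gene model that overlaps its exons on the same strand. How the authors counted such reads is not given in the sources used here, so the levels of APOBEC3D, APOBEC3A and APOBEC3B are less certain than that of APOBEC3C. In addition, 12.9% of APOBEC3B exon bases lie opposite the antisense gene APOBEC3B-AS1, and whether counting used strand is likewise not given. APOBEC3A, the main sharer of APOBEC3B sequence, had at most 6 counts in GIMEN.

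APOBEC3B was set beside 30 genes that E2F and the DREAM complex control, such as MYBL2, MKI67 and the MCM replication helicase subunits. In SK-N-AS these genes fell together: 30 of 30 at S1D4, 29 of 30 at S2D4 and 30 of 30 at S2D30 by edgeR, against 22.4%, 32.2% and 36.5% of all genes. Their median log2 fold changes were -1.54, -2.51 and -5.40. In GIMEN D30 30 of 30 fell, with a median of -5.27, against 36% of all genes. MYBL2, a subunit of the activating partner of DREAM, went from 296 ± 49.1 CPM to 0.314 ± 0.128 CPM (SD, n = 4) between untreated SK-N-AS and S2D30 (log2 fold change -9.84, SE 0.54, edgeR adjusted p = 7.81e-11). In GIMEN it went from 79.2 ± 3.42 to 0.375 ± 0.0772 CPM (SD, n = 3).

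APOBEC3B kept a different place among these genes in the 2 lines. At S2D30, 11.5% of its untreated mean CPM was left, more than the list's median of 2.33%, and 21 of the 30 genes had less left. In GIMEN D30, 0.284% of APOBEC3B was left against a list median of 2.60%, and none of the 30 had less left by these means. MYBL2 was nearest at 0.474%, and the 5 counts of APOBEC3B, with their interval of 151-fold to 1091-fold, do not resolve it from MYBL2. At the earlier stages it lay inside the list, with 25.4% left at S1D4 (5 genes had less) and 15.9% at S2D4 (12 genes had less). These positions describe a gene chosen by its fall in GIMEN and were not tested. APOBEC3C at S2D30 and D30 had 29.8% and 37.7% left, APOBEC3G 52.8% and 75.03%, and APOBEC3F 81.0% and 95.9%. APOBEC3D had 36.1% left at S2D30 and 182% in GIMEN D30, the latter from 21 and 32 pooled counts.

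**Figure D4:**
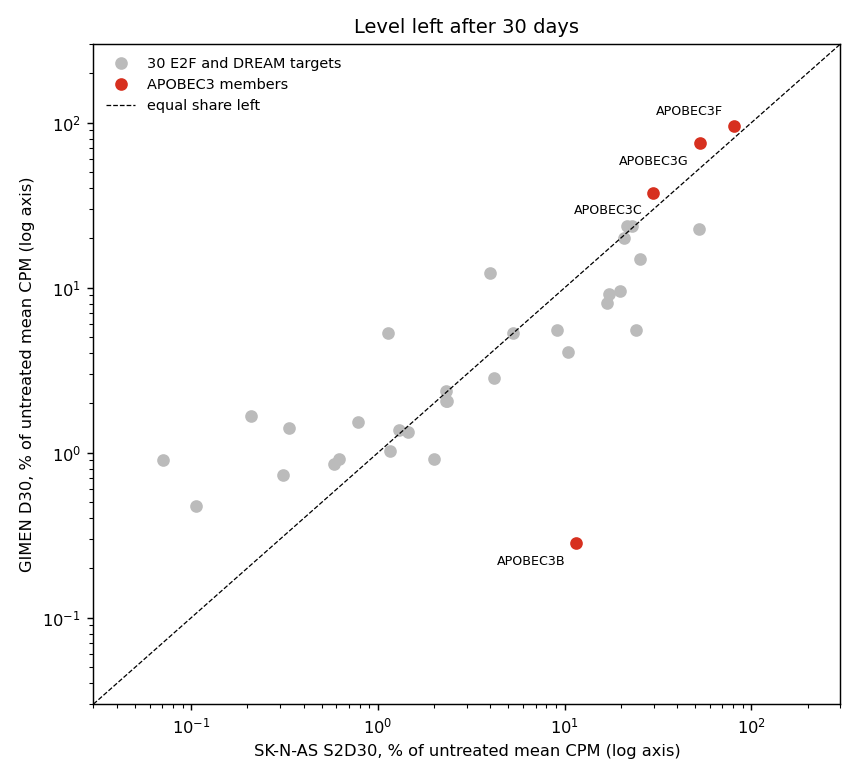
Mean CPM left after 30 days as a percentage of the untreated mean, in SK-N-AS S2D30 (x axis) and GIMEN D30 (y axis), both axes logarithmic (grey: 30 E2F and DREAM targets; red: APOBEC3 members; dashed: equal shares left). APOBEC3B lies at 11.5% and 0.284%, far under the dashed line, while APOBEC3C, APOBEC3F and APOBEC3G lie just above it. APOBEC3D, below the count filter in GIMEN, is not drawn.

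Within 3 of the SK-N-AS groups, the order of libraries by cell cycle transcript was also their order by APOBEC3B. The summed CPM of the 30 genes in S1D4 was 1816 and 1771 in replicates 1 and 2, whose APOBEC3B stood at 5.00 and 4.82 CPM. In replicates 3 and 4 the sum was 1257 and 1212, beside 2.36 and 2.31 CPM of APOBEC3B. In S2D4, replicate 4 had a sum of 1619 against 1114 to 1152 in the other 3, and the highest APOBEC3B, and the other 3 also kept that order. Untreated SK-N-AS replicates 1 to 4 had sums of 4345, 3774, 3727 and 3479, in the same order as their APOBEC3B levels. In S2D30, where the sums lay between 480 and 498 and APOBEC3B between 1.15 and 2.05 CPM, the orders differed, as they did in both GIMEN groups. The part of cell cycle transcript in the APOBEC3B differences was not tested.

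The genes of NF-kB subunits and targets, which include further inputs known for APOBEC3B, mostly rose. In SK-N-AS, 17 of 24 rose and 0 fell at S1D4, 17 rose and 1 fell at S2D4, and 22 rose and 1 fell at S2D30 (median log2 fold changes 1.22, 1.04 and 2.38), where 17.6%, 30.9% and 33.8% of all genes rose. RELB, the NF-kB subunit of the non-canonical branch, rose at all 3 stages, from 18.3 ± 4.44 CPM in untreated cells to 77.1 ± 30.6, 64.0 ± 24.7 and 113 ± 4.30 CPM (SD, n = 4; edgeR adjusted p = 2.12e-05, 2.52e-05 and 2.89e-07). The neutrophil chemokine CXCL8 went from 0.250 ± 0.160 CPM to 25.2 ± 15.9 at S1D4, 166 ± 54.1 at S2D4 and 1798 ± 143 CPM at S2D30. CCL20 went from 0.0480 ± 0.0627 CPM to 841 ± 72.5 at S2D30. In GIMEN, 13 of 21 rose and 4 fell (median 0.98), where 35.5% of all genes rose and 36% fell, with RELB at 5.46 ± 0.487 CPM untreated and 12.5 ± 1.60 CPM at D30 (SD, n = 3; edgeR adjusted p = 1.94e-05). Not all members of the list moved one way there, as the cytokine IL6 fell by 1.91 on the log2 scale (edgeR adjusted p = 0.000471). MAP3K14, also of the list, stood at 62.9 ± 1.45 CPM in untreated GIMEN and 28.0 ± 3.42 CPM at D30 (SD, n = 3), without overlap. In SK-N-AS its mean was 23.0 ± 2.13 CPM untreated and 50.9 ± 3.93 CPM at S2D30 (SD, n = 4). The part of these genes in the APOBEC3B differences was not tested.

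Interferon-stimulated genes, a class that several APOBEC3 genes belong to in immune cells, moved in both directions. In SK-N-AS, 3 of 29 rose and 8 fell at S1D4, 7 rose and 10 fell at S2D4, and 9 rose and 11 fell at S2D30 (medians -0.13, -0.29 and -0.21). The shares of all genes were 17.6%, 30.9% and 33.8% higher and 22.4%, 32.2% and 36.5% lower, so at S2D4 and S2D30 the list lay near the background. In GIMEN 11 of 26 rose and 7 fell (median 0.27), beside 35.5% and 36% of all genes. Among genes with a mean of at least 1 CPM in a group, ISG20, an RNA exonuclease, rose most in each of these contrasts, reaching 26.0 ± 6.96 CPM at S2D30 from 2.19 ± 0.914 CPM (SD, n = 4; edgeR adjusted p = 2.05e-08). IFI44L fell most in SK-N-AS, from 5.32 ± 0.563 CPM to 0.504 ± 0.0470 CPM at S2D30 (SD, n = 4; edgeR adjusted p = 8.67e-07), and, among genes at that level, IFI44 fell most in GIMEN by 1.90 on the log2 scale (edgeR adjusted p = 5.42e-07).

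Genes that remove uracil from DNA, act in its repair or limit its entry fell more often than they rose. Of 17 tested, 10, 10 and 11 fell and 0, 2 and 1 rose at S1D4, S2D4 and S2D30, and 10 fell and 0 rose in GIMEN. Of all genes, 22.4%, 32.2%, 36.5% and 36% fell in these contrasts, and 17.6%, 30.9%, 33.8% and 35.5% rose. The median log2 fold changes were -0.35, -0.52, -0.88 and -0.49. Without replicate 1 of untreated SK-N-AS, 6 fell at S1D4. TYMS, thymidylate synthase, fell most in each contrast, from 180 ± 31.3 CPM to 5.22 ± 0.513 CPM at S2D30 (SD, n = 4; edgeR adjusted p = 1.19e-11) and from 142 ± 3.94 to 6.61 ± 1.40 CPM in GIMEN (SD, n = 3; edgeR adjusted p = 4.19e-11). UNG, the main uracil DNA glycosylase, fell by 0.63 at S1D4 (edgeR adjusted p = 0.0185) and by 1.08 at S2D30 (0.000151) on the log2 scale, and gave -0.34 at S2D4 (0.146). In GIMEN it fell by 1.46 (edgeR adjusted p = 1.89e-08). LIG3, a DNA ligase, was the gene of the list with the largest rise, of 0.69 at S2D4 and 0.59 at S2D30 (edgeR adjusted p = 5.78e-07 and 2.50e-06).

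Other editing deaminases and their cofactors ranged widely in level. Of 11 listed, 6 were tested in SK-N-AS, of which 2, 4 and 4 rose at S1D4, S2D4 and S2D30 and 0, 0 and 1 fell. Of all genes, 17.6%, 30.9% and 33.8% were higher and 22.4%, 32.2% and 36.5% lower. At S1D4 the 2 rises became 1 without untreated replicate 1 or 3, without S1D4 replicate 3 or 4, or with the compared groups alone. ADAR, the main adenosine-to-inosine editor of RNA, stood at 402 ± 51.7 CPM untreated and rose to 463 ± 13.4 at S2D4 and 508 ± 12.9 CPM at S2D30 (SD, n = 4; edgeR adjusted p = 0.0474 and 0.00134). Its S2D4 libraries overlapped the untreated ones. ADARB2, a brain member of the ADAR family, had the largest rise at S2D30, to 2.29 ± 0.362 CPM from 0.0658 ± 0.0669 CPM (SD, n = 4), and ADAT1, a transfer RNA deaminase, fell by 0.92 on the log2 scale (edgeR adjusted p = 2.96e-05). In GIMEN 1 of 5 rose and 2 fell, near the shares of all genes, 35.5% higher and 36% lower. ADARB1 rose by 0.34 (edgeR adjusted p = 0.00241) and ADAT2 fell by 0.57 (edgeR adjusted p = 0.0196). The 2 falls became 0 without replicate 1 of untreated GIMEN, and 1 without replicate 3 of it, without D30 replicate 1 or 2, or with DESeq2, upper-quartile scaling or the replicate block. APOBEC1, APOBEC2 and APOBEC4, relatives of the family, had mean levels of at most 0.309 CPM in every group.

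Genes around the family on chromosome 22 moved in both directions. Of 10 neighbours, 4, 4 and 6 rose and 1, 2 and 1 fell at S1D4, S2D4 and S2D30 in SK-N-AS, where 17.6%, 30.9% and 33.8% of all genes rose and 22.4%, 32.2% and 36.5% fell. In GIMEN 5 of 8 tested rose and 1 fell, beside 35.5% and 36%. CBX6 and CBX7, both encoding chromobox proteins of Polycomb complexes, are the listed genes nearest to either end of the family. CBX7 rose in every contrast, from 6.75 ± 0.969 CPM untreated to 13.001 ± 1.58, 18.5 ± 1.84 and 58.0 ± 4.06 CPM in SK-N-AS (SD, n = 4; edgeR adjusted p = 2.20e-05, 4.57e-08 and 3.98e-12). In GIMEN it rose from 5.85 ± 0.303 to 59.2 ± 3.85 CPM (SD, n = 3; edgeR adjusted p = 8.50e-11). CBX6 gave 0.15 at S1D4 (edgeR adjusted p = 0.526) and rose by 0.76 at S2D4 (0.00146), by 0.73 at S2D30 (0.00159) and by 0.25 in GIMEN (0.00352) on the log2 scale. MGAT3, a glycosyltransferase gene further out, fell by 0.83, 3.80 and 4.02 in SK-N-AS (edgeR adjusted p = 0.0325, 7.66e-08 and 2.82e-08) and by 1.27 in GIMEN (edgeR adjusted p = 0.0357). At S1D4, where it was the lone lower neighbour, MGAT3 lost its call without replicate 1 or 2 of the untreated cells or any 1 of the S1D4 libraries. In GIMEN, where it was also the lone lower neighbour, it lost its call with DESeq2 and without untreated replicate 1 or 3 or D30 replicate 2. PDGFB, a growth factor gene, rose by 1.12 at S1D4 (edgeR adjusted p = 0.00915) and by 1.46 at S2D4 (0.000655), and had 0 counts in all GIMEN libraries. Its mean was highest at S2D30, at 10.95 ± 1.20 CPM against 1.39 ± 0.903 CPM untreated (SD, n = 4).

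**Figure D5:**
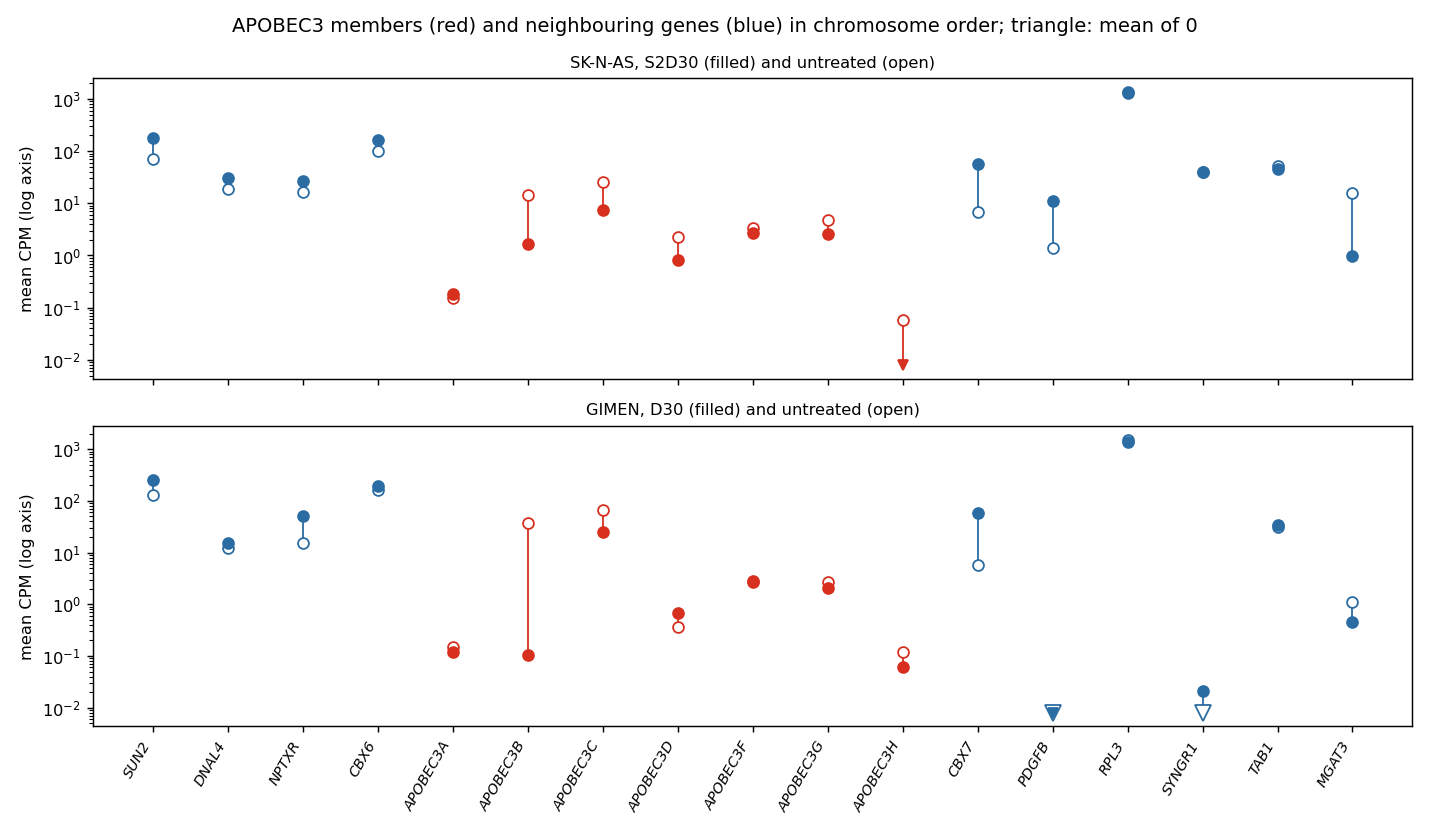
Mean CPM (log axis) of the 7 members (red) and 10 neighbouring genes (blue) in chromosome order (x axis), untreated (open) and after 30 days (filled), in SK-N-AS and GIMEN; triangles mark a mean of 0. CBX7 rises in both lines to 58.0 and 59.2 CPM. The means of APOBEC3 members are lower after 30 days, other than APOBEC3A in SK-N-AS and APOBEC3D in GIMEN, both at low counts.

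White blood cells, in which several members are abundant, were looked for through 14 markers. In SK-N-AS the summed marker level was 164 to 205 CPM untreated, 52.8 to 67.7 at S1D4, 25.3 to 28.2 at S2D4 and 5.19 to 7.95 CPM at S2D30. It was thus lower at each stage at which APOBEC3B, APOBEC3C and APOBEC3D were below untreated cells, and lower again from S2D4 to S2D30, where none of them passed the test. In untreated cells nearly all of it was PTPRC (CD45), at 179 ± 17.8 CPM untreated and 0.832 ± 0.351 CPM at S2D30 (SD, n = 4; edgeR adjusted p = 2.22e-14). CD3E, CD2 and MS4A1, which define T and B cells, had 0 counts in all 16 SK-N-AS libraries, where 3 to 4 of the 14 markers were at 0 per group. The other 2 markers that passed the count filter, CSF1R and CD14 of the monocyte lineage, rose at S2D30, CSF1R from 0.262 ± 0.163 CPM to 1.65 ± 0.377 CPM (SD, n = 4; edgeR adjusted p = 5.47e-06) and CD14 by 1.18 on the log2 scale (edgeR adjusted p = 0.00546). In GIMEN the sum was 11.7 to 15.8 CPM untreated and 6.72 to 9.05 CPM at D30, mostly CSF1R (11.9 ± 1.93 and 5.16 ± 1.53 CPM; SD, n = 3), with SPI1 at 0 in all 6 libraries (5 of 14 markers at 0 untreated, 2 at D30). The part of these markers in the APOBEC3 differences was not tested.

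Across the 22 libraries, the genes most like each member were ranked by the Pearson correlation of log2 CPM, as a description. The libraries share their groups, so a gene that follows the treatments in both lines ranks high. APOBEC3B was nearest to RBBP8 (r = 0.980), KPNA2 (0.968) and TMEM97 (0.967). RBBP8, a DNA end resection factor, had mean CPM of 43.6, 29.7, 26.0 and 23.3 in the SK-N-AS groups from untreated to S2D30, and 54.8 and 13.5 in GIMEN untreated and D30. It thus kept the group order of APOBEC3B over a narrower range. With a prior count of 0.5 in place of 2, KPNA2 was no longer among the 3 nearest. APOBEC3C was nearest to GYS1 (0.982), PSMD1 (0.981) and SAMM50 (0.974). APOBEC3D, which was higher in untreated SK-N-AS than in untreated GIMEN, was nearest to RNF112 (0.942), ZBTB18 (0.918) and SLC29A4 (0.909), the last of which also depended on that prior count. APOBEC3G was nearest to SMAP1 (0.876), CBR4 (0.863) and TMEM160 (0.855). For APOBEC3F the best matches were weaker, TOP1MT and SPRTN at 0.680 and PRR5L at 0.676.

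Between members the likeness depended on whether GIMEN was included. Within the 16 SK-N-AS libraries, APOBEC3C and APOBEC3D correlated at 0.892, APOBEC3B and APOBEC3D at 0.863, and APOBEC3B and APOBEC3C at 0.815. Over all 22 libraries the same pairs gave -0.164, 0.152 and 0.459. APOBEC3F stayed at 0.330 to 0.444 with each of the others within SK-N-AS. The points share groups and libraries, so these values are given without a test.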

How the data were processed

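RNA-seq counts per gene were analysed in 22 libraries, sequenced paired-end per the labels' protocols. The authors deposited raw counts, whole numbers whose totals differ between libraries. Aligner, counter, genome build and the handling of strand and of shared reads are not given in the sources used here. No 2 libraries were identical.

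Tests were run with edgeR 4.0.16 under R 4.3.3 (filterByExpr with minimum count 10 and minimum total 15, TMM scaling, quasi-likelihood F-test). One model covered 16 SK-N-AS libraries and another 6 GIMEN libraries, with Benjamini-Hochberg adjustment over all genes tested and a threshold of 0.05. The test was also run on simulated data, in which far fewer genes changed than were called here. That run therefore cannot check the scaling under such broad change. CPM, means and SDs used a common scaling. Exact binomial intervals at 95% and the limit of 3 counts cover counting error only. For correlations, a prior count of 2 was added before taking log2 CPM. Exon lengths (union of exons) and shared stretches came from GENCODE v29, whose build may differ from the authors'.

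The members and lists were chosen with earlier results of these data known. All 7 members were named, with the called gene of largest rise and largest fall per list and contrast (mean of at least 1 CPM in a group). Also named were UNG, RELB, MAP3K14, MYBL2, ADAR, CBX6, CBX7 and the 3 genes most like each member with a mean of at least 1 CPM. A few genes of the lists are not reported here by name. Alternatives were DESeq2 1.42.0, other scalings, filters and prior counts, a fold minimum, a replicate block, the compared groups alone and leaving out each library.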

Additional observations from a re-analysis of the deposited data

Results flagged for a closer look

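In SK-N-AS, 26 sets of 4 libraries (a member's levels in a group, leaving out sets at 0 throughout) were examined for a library far from the rest by Dixon's criterion at 95%. In 2 sets a library stood out. The criterion's nominal rate of about 1 in 20 assumes continuous values and does not hold at the low counts of these sets. APOBEC3A was at 0.449 CPM, from 17 counts, in replicate 1 of untreated SK-N-AS, where the next highest library held 0.0600 CPM. APOBEC3H was at 0.120 CPM, from 3 counts, in replicate 1 of S1D4, where the other 3 libraries had 0 counts. In such a set any count in the remaining library is flagged. Both members were outside the tests because of their low counts.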

How the results depend on the processing

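In SK-N-AS, 380 member fold changes were recomputed under the alternatives: 369 kept their call, 6 lost it, 5 gained it and 0 reversed. APOBEC3B and APOBEC3C kept their calls against untreated cells in each of these refits. Requiring also a change of at least 1 on the log2 scale left 1 member lower at S1D4 in place of 3. Leaving out each library gave 2 to 3 members at S1D4, 3 to 5 at S2D4, 4 to 4 at S2D30, 2 to 3 for S2D4 against S1D4 and 0 to 1 for S2D30 against S2D4, the 1 being APOBEC3G without S2D4 replicate 4. Same-numbered libraries did not meet the criterion for pairing, every correlation of deviations over 0.1: at S1D4 they were 0.273, 0.267, 0.0413 and 0.290, and at S2D4 -0.106 to 0.0212. The replicate block gave 3, 5, 4, 2 and 0 members in the same order, APOBEC3G being added at S2D4 (-0.61, edgeR adjusted p = 0.0341). The GIMEN fit of APOBEC3B was -9.07 without D30 replicate 2. Of 696 list counts, 33 moved by over 1.5 times, mostly counts of 0 to 2. Of 84 group means, 5 moved by over 1 SD. No scaling moved the median of all genes by over 0.1 on the log2 scale. Depth limits APOBEC3A, APOBEC3H and, in GIMEN, APOBEC3D.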
